A study of Mus musculus with 4 samples.

Results

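The serpins are a family of protease inhibitors, and 48 Serpin genes of the mouse were followed here across 4 clonal mammary tumor cell lines. The members are all genes whose probe set on the array is listed with a single symbol that begins with Serpin, out of 19938 genes with such a probe set, and each of the 48 has 1 probe set. The choice used the gene symbols and no expression value. A later RefSeq gene table holds 63 protein-coding Serpin genes, of which 47 are members, and the remaining 16 were not analysed as single genes here.

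The lines came from 1 spontaneous mammary tumor of a female mouse of the strain FVB Tg MMTV/neu (FVB/N in the study's methods), in which the promoter of the mouse mammary tumor virus drives the rat neu (ErbB2) gene in the mammary gland. Tumor cells were separated by flow cytometry, and limiting dilution of the fractions gave the epithelial clones E1 and E2, from cells with much CD24 and neu on the surface, and the mesenchymal-like clones M1 and M2, from cells with little of both. E cells were grown in RPMI with 20% serum, and M cells in a mammary epithelial medium with 2% serum, pituitary extract, epidermal growth factor, insulin and hydrocortisone, so that the type of cell and its medium cannot be told apart. RNA of each line was measured on 1 array, so each type has 2 lines and each line is 1 clone. The standard deviations (SD) below give the spread between clones and not between cultures of a clone. The strain and the transgene are common to all 4.

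A serpin presents an exposed loop that a target protease cuts, after which the serpin changes shape and holds the protease in an inactive complex, so that each molecule works once. Clade A serpins are mostly secreted, many of them by the liver, and control proteases of blood and inflammation. Clade B serpins mostly stay inside the cell, where they guard against proteases of lysosomes and of cytotoxic granules. Some members, such as Serpinb5 and Serpinh1, inhibit no protease.

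The labels of the lines were checked against marker genes, and levels are given on the log2 scale of the normalized array. Cdh1 (E-cadherin), a defining epithelial gene, was at 12.15 in E1 and 12.31 in E2 against 6.70 in M1 and 6.51 in M2. Cdh1, Epcam and Cldn7 were higher in the E lines, and Zeb1, Twist1 and Cdh2 were higher in the M lines. The other 6 markers of the epithelial and mesenchymal lists did not pass the test. All 6 (Krt8, Krt18, Krt19, Vim, Fn1 and Sparc) were above background in all 4 lines, Krt19 only just, at 6.33 to 6.48. Of 6 leukocyte markers, 3 were above background in at least 1 line, and the summed level of the 6 on the linear scale was 746 to 1884 in the E lines and 2263 to 3453 in the M lines. None of the 6 was called, and their median difference, M lines minus E lines, was 0.05. Most of the sum came from Cd68, a lysosomal gene of macrophages, at 10.66 (E1), 8.77 (E2), 10.59 (M1) and 11.60 (M2). Ptprc (CD45), the defining leukocyte gene, lay between 5.51 and 5.88 in all 4 lines and Cd79a between 4.48 and 4.78, both below background. Cd3e was above background in all 4 lines, at 6.73 (E1), 6.90 (E2), 6.62 (M1) and 6.89 (M2). Lyz2, the lysozyme of myeloid cells, was at 5.08 (E1), 5.65 (E2), 8.91 (M1) and 6.57 (M2). The part of these markers in the results on the clade B serpins, several of which leukocytes also express, was not tested.

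An array gives a value for a gene that is not transcribed, so a level was read as expression only above an array background. This background is the 95th percentile of 1210 probe sets for olfactory and vomeronasal receptors on the same array. It was 6.13 (E1), 6.24 (E2), 6.16 (M1) and 6.23 (M2). Some markers of other tissues passed it in all 4 lines. These were Prm1 (6.64 to 6.68) and Prm2 (7.12 to 7.32) of testis, Apoa1 of liver (7.04 to 7.25) and Plin1 of fat cells (6.73 to 6.77). Whether they are transcribed here was not tested, so a level in that range need not mean expression. Of the 48 Serpin genes, 21 were above it in at least 1 line and 27 were at or below it in all 4. By line, 19 members were above background in M1 and 14 in M2, against 10 in E1 and 11 in E2. The share of all genes above background is not given here, so these counts only describe the family. Of the 21, 9 were above background in every line, 6 in exactly 2 lines and 6 in exactly 1 line.

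The expressed members were unevenly spread over the family. Clade B held 14 of them among its 24 members, and clade A held 3 of 15. Both clade F genes (Serpinf1 and Serpinf2), the 1 clade E gene (Serpine3) and the 1 clade H gene (Serpinh1) were above background. The genes of clades C, D, G and I were below it in all lines. With the stricter 99th percentile of the same receptors, 14 members were above background in at least 1 line. The markers Prm2 and Apoa1 passed this stricter mark too, in every line.

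**Figure D1:**
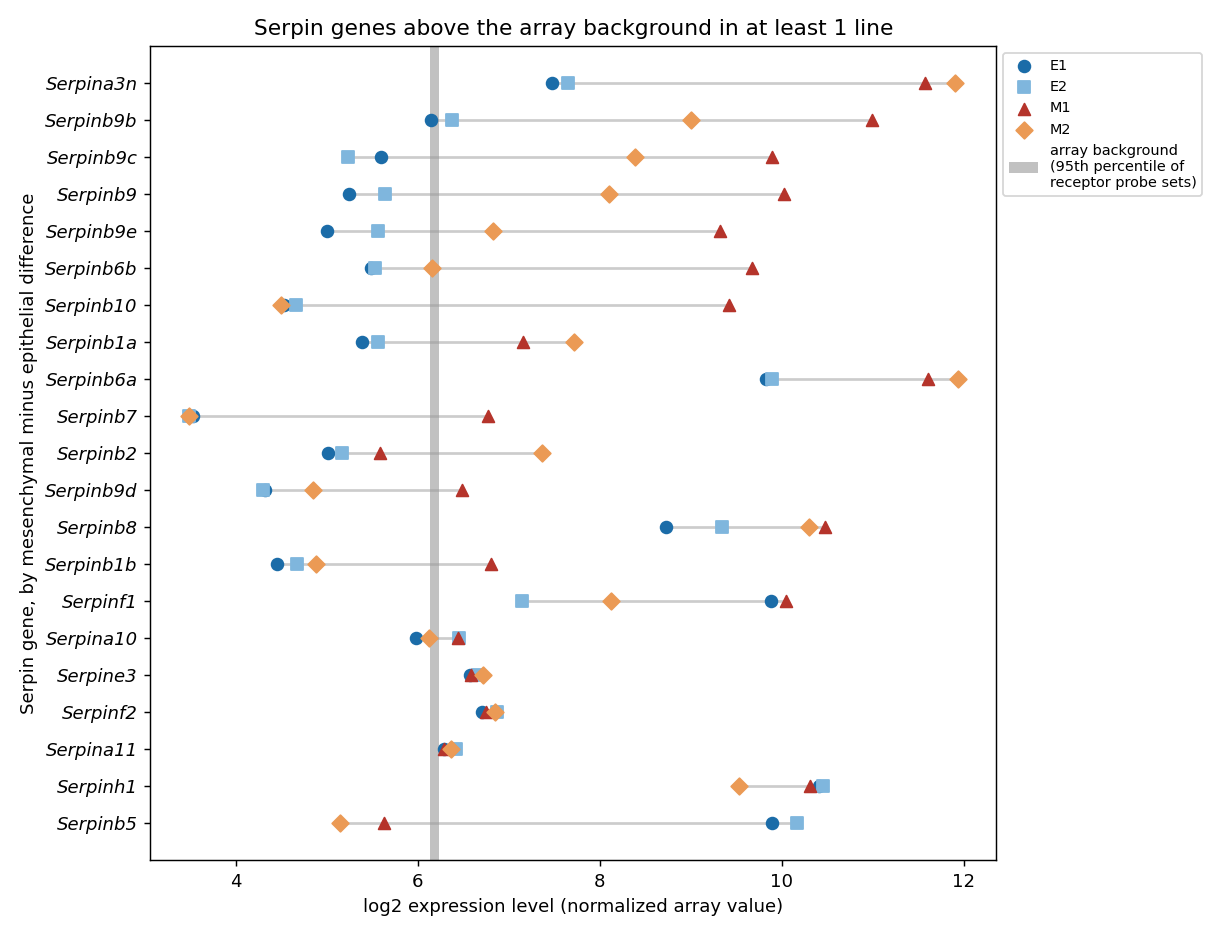
Log2 expression level (horizontal axis, normalized array value) of the 21 Serpin genes above the array background in at least 1 line, ordered from top to bottom by the difference between mesenchymal-like and epithelial lines. Each symbol is 1 line measured on 1 array, and the grey band spans the array backgrounds from 6.13 to 6.24. Serpina3n stands at 7.47 and 7.65 in the E lines and at 11.58 and 11.90 in the M lines, while Serpinb5 runs the other way, from 9.89 and 10.17 down to 5.63 and 5.14.

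The first comparison asks how the inhibitors differed between epithelial and mesenchymal-like tumor cells. Serpina3n, Serpinb6a and Serpinb1a were higher in the M lines, and Serpinb5 was higher in the E lines. In RNA from a whole culture, more cells that express a gene and more RNA per cell cannot be told apart. These 4 genes passed limma's test of the 2 types, adjusted over all 23410 named probe sets at a threshold of 0.05. Thus 3 of 48 members were called higher in the M lines, where 1.72% of all probe sets were, and 1 was called higher in the E lines, where 2.02% were. The median difference, M lines minus E lines, was 0.13 over the 48 members and 0.00 over all probe sets.

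Serpina3n encodes a secreted acute-phase inhibitor related to human antichymotrypsin. Its level was 7.47 (E1), 7.65 (E2), 11.58 (M1) and 11.90 (M2). The groups lay far apart, with E lines at 7.56 ± 0.12 (SD, n = 2) and M lines at 11.74 ± 0.23. The difference of 4.18 ± 0.16 (SE), which is 18.1-fold, passed with an adjusted p of 0.00358. The SE of a difference, here and below, is limma's. It draws the variance of each gene toward a value common to all probe sets, so it is not the spread between clones alone.

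Serpinb6a, an inhibitor that stays in the cytoplasm and acts on trypsin-like proteases and cathepsin G, was well above background in every line. Levels were 9.82 (E1), 9.89 (E2), 11.61 (M1) and 11.93 (M2). The M lines were both higher, by 1.91 ± 0.16, or 3.77-fold, with an adjusted p of 0.0161.

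Serpinb1a is the mouse counterpart of the leukocyte elastase inhibitor, which acts on the serine proteases of neutrophils. It was below background in E1 (5.39) and E2 (5.56) and above it in M1 (7.16) and M2 (7.72). Because the E lines give only an upper limit, the M lines were at least 2.38-fold higher, and the fitted difference of 1.96 ± 0.23 had an adjusted p of 0.0365. With values raised to the background before the fit, the difference was 1.25 and no longer passed.

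Serpinb5 (maspin) is a serpin of mammary epithelium without inhibitory action on proteases. Its level was 9.89 in E1 and 10.17 in E2, while M1 (5.63) and M2 (5.14) were below background. The E lines were therefore at least 14.3-fold higher, with a fitted difference of 4.64 ± 0.22 and an adjusted p of 0.00491. It was the 1 expressed clade B gene with both E lines above both M lines.

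These calls rest on few lines. With E1 or with E2 left out, limma called 0 members in either direction, and no probe set outside the family either. Before adjustment, 9 members passed 0.05 each time, beside 2579 and 2651 of the 23410 probe sets. With M1 left out 9 members were called, beside 1761 of all probe sets, and with M2 left out 13, beside 1879, against 874 with all 4 lines. The 4 genes named above were among them both times.

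More members had both M lines on top than both E lines. Both M lines were above both E lines for 21 of the 48 members, against 24.2% of all probe sets, and both E lines were above both M lines for 3, against 23.8%. Of those 21 members 9 were below background in all 4 lines, where an order carries little. Serpinb8, an inhibitor of furin, was at 8.72 (E1), 9.34 (E2), 10.48 (M1) and 10.29 (M2). Its difference of 1.35 had an adjusted p of 0.0910. Serpinb2 (plasminogen activator inhibitor 2), which acts on urokinase, was above background in M2 alone, at 7.36, with 5.58 in M1, 5.01 in E1 and 5.16 in E2. Its difference between the types had an adjusted p of 0.395.

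Most of the expressed clade B genes lie next to each other on chromosome 13. In the RefSeq order of assembly GRCm38.p6, 13 members follow one another there without a non-Serpin gene of the array between them, from Serpinb1a through the Serpinb9 genes to Serpinb6a. Serpinb9 inhibits granzyme B and protects cytotoxic lymphocytes from their own granules, and the genes with letters after the 9 are mouse duplicates of it. The median difference over all 13, M lines minus E lines, was 1.91. Of the 13, 9 were above background in at least 1 line, 7 of them in M lines alone, so that a higher level there came with the choice of expressed genes and is a description. With values raised to the background, the difference was 0.33 for Serpinb1b and 0.18 for Serpinb9d, against 3.74 for Serpinb9b. The other 4, Serpinb1c, Serpinb6c, Serpinb6d and Serpinb6e, stayed below background in every line.

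Serpinb9 was at 5.24 (E1), 5.63 (E2), 10.03 (M1) and 8.10 (M2). Serpinb9b was at 6.14 (E1), 6.37 (E2), 10.99 (M1) and 9.01 (M2). Serpinb9c was at 5.59 (E1), 5.23 (E2), 9.89 (M1) and 8.39 (M2). These 3 shared 1 order, with M1 highest, M2 between and the E lines below background, or for Serpinb9b just above it. The M lines were at least 7.34-fold higher for Serpinb9 and at least 7.75-fold for Serpinb9c, and Serpinb9b differed by 3.74, yet the spread between M1 and M2 left adjusted p values of 0.0997, 0.0608 and 0.0974.

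Serpinb9e was below background in both E lines, at no more than 5.56, and was at 9.32 in M1 and 6.83 in M2. Serpinb6b, a paralog of Serpinb6a, was at 5.48 (E1), 5.52 (E2), 9.67 (M1) and 6.15 (M2). In both genes M2 was close to background while M1 was far above it. Serpinb9d (4.32, 4.30, 6.49 and 4.85 in E1, E2, M1 and M2) and Serpinb1b (4.46, 4.68, 6.80 and 4.88 in the same order) were above background in M1 alone. None of these 4 passed the test of the types, with adjusted p values of 0.241 for Serpinb9e, 0.452 for Serpinb6b, 0.363 for Serpinb9d and 0.475 for Serpinb1b.

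The 10 named genes that flank the group, 5 on each side, differed between the types by -0.76 to 2.44, with a median of -0.19. Of these 10 genes 1, Nqo2, named here after its values were seen, had M lines at least 2-fold higher, and it was called. A further 3 probe sets, each listed with several Serpinb9 symbols and therefore not members, were at 4.96 to 5.35 in the E lines, 8.94 to 9.48 in M1 and 6.40 to 6.71 in M2. The Serpinb9 genes are close copies of each other, the probe sequences were not used here, and whether a probe set of 1 copy also reads RNA of another was not tested.

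**Figure D2:**
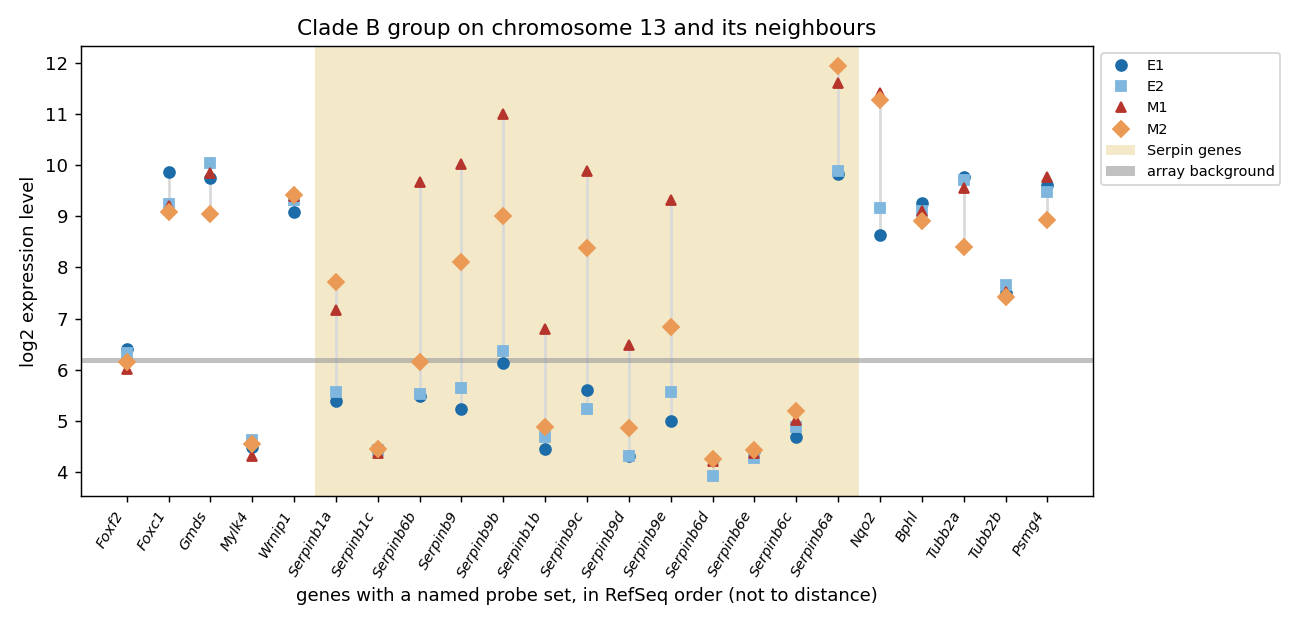
Log2 expression level (vertical axis) of 13 clade B Serpin genes on chromosome 13 (shaded) and of 5 named genes on either side, in RefSeq order along the horizontal axis, which is not to distance. Each symbol is 1 line and the grey band is the array background. M1 is at 9.67 in Serpinb6b, 10.03 in Serpinb9 and 10.99 in Serpinb9b, M2 is lower in each of these, and the flanking genes other than Nqo2 keep the 4 lines closer together than the expressed Serpin genes do.

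The second comparison asks which inhibitors set M1 apart from the other 3 lines. Serpinb10 and Serpinb7 were higher in M1 and below background in E1, E2 and M2. These 2 of 48 members passed limma's test, where 0.0854% of all probe sets did. In the other direction 0 members passed, where 0.00854% of all probe sets did. An unadjusted p under 0.05 in this test was reached by 6 members, all higher in M1, beside 1640 of the 23410 probe sets. The direction of those 1640 was not counted. M1 is a single array here, and the test assumes that it would vary like the other lines.

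Serpinb10 (bomapin) is a serpin of blood-forming cells that enters the nucleus. It was at 9.42 in M1, against 4.53 in E1, 4.66 in E2 and 4.50 in M2. M1 was at least 9.33-fold above the other lines, and the fitted difference of 4.86 ± 0.14 had an adjusted p of 0.0338. The other lines, at 4.56 ± 0.09 (SD, n = 3), were all below background.

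Serpinb7 (megsin) is a serpin known from kidney mesangial cells and skin. It was at 6.77 in M1, 3.53 in E1, 3.48 in E2 and 3.49 in M2. The M1 level was not far above background, so that M1 can only be said to be at least 1.48-fold higher, and the fitted difference of 3.27 ± 0.11 had an adjusted p of 0.0476. With probe sets below background in all lines left out of the fit, or with values raised to the background, Serpinb7 no longer passed.

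Serpinb6b was also highest in M1, at 3.95 above the other lines, or at least 11.1-fold, with an adjusted p of 0.170. With values raised to the background it passed, at a difference of 3.47 and an adjusted p of 0.0250. With E1 or E2 left out, limma called 0 members in this comparison and 0 of all probe sets, while 7 and 5 members, beside 873 and 865 of all probe sets, passed an unadjusted p of 0.05. With M2 left out, the comparison is M1 against E1 and E2, which is the same fit as that of the types without M2. It therefore does not set M1 apart from M2.

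Set directly against M2, M1 had the higher level for most members that differed. These are differences between 2 single arrays, without a replicate check. Measured levels were at least 2-fold higher in M1 for 10 of 48 members, where 3.22% of all probe sets were, and at least 2-fold lower for 1, where 2.64% were. The 10 were Serpinf1 and 9 clade B genes, and the 1 was Serpinb2, which was at least 2.31-fold higher in M2, since M1 was below background. M2 was below background for Serpinb1b, Serpinb7 and Serpinb9d, where M1 was at least 1.49-fold, 1.45-fold and 1.19-fold higher. With values raised to the background, 8 members rather than 11 differed at least 2-fold in either direction. At a 10-fold difference, the threshold of the study, 2 members were higher in M1 (Serpinb10 and Serpinb6b), where 0.256% of all probe sets were, and 0 were lower, where 0.179% were. With M2 below background in both, M1 was at least 9.13-fold higher for Serpinb10 and at least 10.8-fold for Serpinb6b. The measured M1 excess was 5.61-fold for Serpinb9e, 3.97-fold for Serpinb9b, 3.80-fold for Serpinb9 and 2.83-fold for Serpinb9c. For Serpinb1a, Serpinb6a and Serpina3n, the genes called higher in the M lines, M2 was slightly above M1, by 0.56, 0.33 and 0.32.

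**Figure D3:**
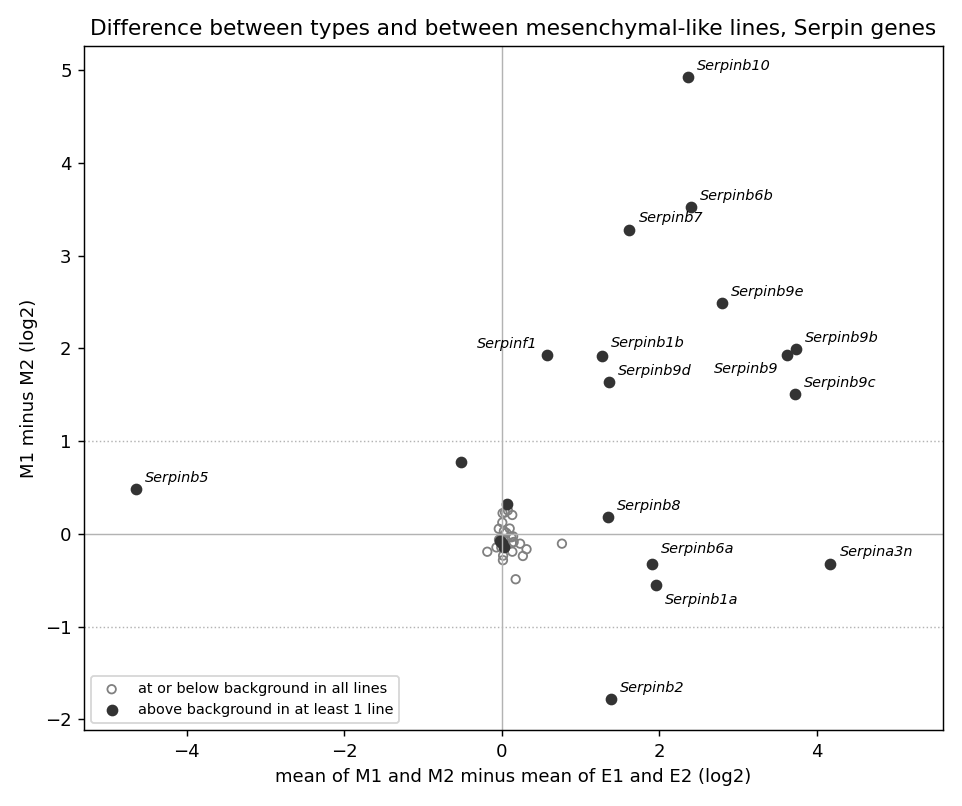
Each point is 1 of the 48 Serpin genes, placed by the mean of the M lines minus the mean of the E lines (horizontal axis, log2) and by M1 minus M2 (vertical axis, log2), both as measured and without a floor at background. Filled points were above background in at least 1 line, and dotted lines mark 2-fold. Serpinb10 is highest at 4.92 on the vertical axis, Serpina3n lies far right at 4.18 and near 0 between the M lines, and Serpinb5 lies alone on the left at -4.64.

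Fewer members differed between the 2 epithelial clones. No member was at least 2-fold higher in E2 than in E1, where 1.25% of all probe sets were, and 1 was at least 2-fold lower, where 0.987% were. That gene was Serpinf1 (pigment epithelium-derived factor), a secreted serpin that acts against blood vessel growth and inhibits no protease. Its level was 9.88 (E1), 7.14 (E2), 10.05 (M1) and 8.12 (M2). E1 exceeded E2 6.67-fold and M1 exceeded M2 3.80-fold, so the lines of the 2 types overlapped.

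Serpinh1 (Hsp47), which helps collagen fold in the endoplasmic reticulum, was far above background in all lines, at 10.41 (E1), 10.45 (E2), 10.31 (M1) and 9.53 (M2). M2 was lowest, and the difference of the types, -0.51, had an adjusted p of 0.506. The last 4 expressed members were near background with little spread. Serpinf2, which encodes the plasmin inhibitor alpha-2-antiplasmin, was at 6.71 (E1), 6.86 (E2), 6.75 (M1) and 6.84 (M2). Serpine3 was at 6.57, 6.66, 6.58 and 6.72, and Serpina11 at 6.28, 6.42, 6.29 and 6.37, in the same order of lines. Serpina10, the inhibitor that works with protein Z against coagulation factor X, was at 5.98 (E1), 6.45 (E2), 6.44 (M1) and 6.12 (M2). None of these 4 was above the stricter 99th percentile in any line.

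The 27 members low in all lines had levels from 3.31 to 6.08, with a median range over the 4 lines of 0.25. Among them were 12 clade A genes at 3.98 to 5.76, many of which the liver secretes. They include Serpina1c and Serpina1d (alpha-1-antitrypsin), Serpina6 (corticosteroid-binding globulin) and Serpina7 (thyroxine-binding globulin). Serpinc1 (antithrombin), Serpind1 (heparin cofactor II) and Serping1 (C1 inhibitor) were low as well, between 5.49 and 6.08. The 10 low clade B genes, at 3.31 to 5.19, hold the Serpinb3 genes, which are mouse relatives of the squamous cell carcinoma antigens, and Serpinb11, Serpinb12 and Serpinb13. The widest range, 0.87, was that of Serpini1 (neuroserpin, an inhibitor of tissue plasminogen activator in nerve cells), at 4.74 (E1), 4.85 (E2), 5.51 (M1) and 5.61 (M2). With all 4 values below background this gives no fold, and the adjusted p was 0.0608.

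On chromosome 1 a second group of 11 clade B members, from Serpinb5 to Serpinb8, held 5 expressed genes with several patterns. Serpinb5 was highest in the E lines, Serpinb7 and Serpinb10 in M1, Serpinb2 in M2, and Serpinb8 in both M lines. The other 6 were below background in all lines. The 10 named genes flanking the group differed between the types by -1.32 to 0.33, and 1 of them, Phlpp1, which was named after its values were seen, was called, with higher levels in the E lines.

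The promoters of 4 of the 6 called genes, Serpina3n, Serpinb5, Serpinb10 and Serpinb7, are shown because their levels differed most between lines, and those of Serpinb9 and Serpinb9b as a pair of copies with 1 order of lines. RefSeq promoter sequences of assembly GRCm38.p6 were found by gene identifier for 41 of the 48 members, 19 of them expressed. The last 150 bases before the annotated start are printed 5′ to 3′ on the strand of the gene, with capitals for the motifs named after them.
Serpina3n, chr12:104406558-104406707 (+ strand): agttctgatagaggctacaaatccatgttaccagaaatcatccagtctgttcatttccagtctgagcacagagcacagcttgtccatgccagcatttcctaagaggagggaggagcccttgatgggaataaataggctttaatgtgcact
Serpinb5, chr1:106861025-106861174 (+ strand): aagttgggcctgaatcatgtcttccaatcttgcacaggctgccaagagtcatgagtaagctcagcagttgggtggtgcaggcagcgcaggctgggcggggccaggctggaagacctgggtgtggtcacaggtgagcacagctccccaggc
Serpinb10, chr1:107528853-107529002 (+ strand): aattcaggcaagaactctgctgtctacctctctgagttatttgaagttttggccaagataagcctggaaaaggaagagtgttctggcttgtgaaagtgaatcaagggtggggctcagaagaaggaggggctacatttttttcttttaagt
Serpinb7, chr1:107422539-107422688 (+ strand): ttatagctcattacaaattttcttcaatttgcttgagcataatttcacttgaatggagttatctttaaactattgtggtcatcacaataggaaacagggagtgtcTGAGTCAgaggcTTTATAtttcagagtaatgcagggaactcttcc
Serpinb9, chr13:33004391-33004540 (+ strand): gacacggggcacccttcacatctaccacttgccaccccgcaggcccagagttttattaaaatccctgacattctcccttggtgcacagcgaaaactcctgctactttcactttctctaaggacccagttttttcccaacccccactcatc
Serpinb9b, chr13:33027264-33027413 (+ strand): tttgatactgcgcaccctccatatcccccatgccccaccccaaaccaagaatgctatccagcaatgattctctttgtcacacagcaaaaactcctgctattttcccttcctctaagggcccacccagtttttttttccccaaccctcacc

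In the 250 bases before the start, a TATA box (letters TATAAA) and an AP-1 motif (letters TGACTCA) were sought on both strands. The former was in 12.4% of 32851 RefSeq promoters, or 14.3% of 27025 genes, and in 11 of the 41 members. The latter was in 4.46% of promoters, or 5.16% of genes, and in 4 of 41 members. Among the 19 expressed members, Serpinb2 and Serpinb7 held the TATA letters, and Serpinb7 and Serpinb8 held those of AP-1. In Serpinb7 both were on the opposite strand and are shown in capitals as they read on the strand of the gene. The AP-1 motif (TGAGTCA) has its first base 45 bases before the start, and the TATA box (TTTATA) has its first base 33 bases before it. Neither was found in the other 5 promoters printed. Aligned over 250 bases, the promoters of Serpinb9 and Serpinb9b were 58.2% identical, and all other pairs among these 6 genes, Serpinb6b and Serpinb9e were 42.2% to 52.4% identical. A match of letters is a description and not evidence of a bound factor.

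The proteases that serpins act on were described from lists of genes. Clade B serpins inhibit some proteases of granules. Among 20 granule genes, which are proteases and perforin (Prf1), 9 were above background, 1 was called higher in the M lines and 0 in the E lines. Over all probe sets, 1.72% were called higher in the M lines and 2.02% in the E lines, which holds beside every list below. Of the 9, Elane, Prtn3, Gzmd, Gzmm, Tpsb2 and Prf1 were near background, at no more than 6.91. The median difference of the 20 was 0.07. The called gene was Mcpt8, a protease of basophil granules, at 5.07 (E1), 5.85 (E2), 12.35 (M1) and 10.59 (M2), with an adjusted p of 0.0348. Gzme, a granzyme gene, was at 7.35 (E1), 7.98 (E2), 12.57 (M1) and 8.23 (M2), which is the order of lines of Serpinb6b, and its test of M1 had an adjusted p of 0.170. Gzmb, which encodes the target of Serpinb9, was below background in all lines, between 5.04 and 5.22. Ctsg (cathepsin G), a target of Serpinb6a and Serpinb1a, was at 5.46 (E1), 5.50 (E2), 7.93 (M1) and 5.65 (M2).

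Among 12 genes of plasminogen activation, the system held in check by Serpinb2 and Serpinf2, 2 were called higher in the E lines (St14 and Prss8, both membrane proteases) and 0 in the M lines, with a median of 0.13. Plau (urokinase), the target of Serpinb2, was at 5.71 (E1), 5.68 (E2), 7.33 (M1) and 9.13 (M2), so that M2 was highest in both. Its adjusted p was 0.162. Mmp3 (stromelysin 1) was at 5.05 (E1), 5.32 (E2), 8.44 (M1) and 10.84 (M2), with an adjusted p of 0.0987. Of 19 coagulation genes, 2 were higher in the M lines (F5 and Procr) and 1 in the E lines (F3, tissue factor), with a median near 0.

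None of 9 complement proteases was called in either direction by limma, and 2 passed an unadjusted p of 0.05, with a median of 0.69. The gene C1s1, a target of Serping1, was at 8.96 in M1 and 4.25 to 4.59 in the other lines. Masp1, a protease of the lectin pathway, was at no more than 6.44 in the E lines, at 9.12 in M1 and at 10.62 in M2, with an adjusted p of 0.0642. Of 19 cathepsins, caspases and kallikreins, 1 (Ctso) was higher in the M lines, and the median was 0.02. Casp1 (caspase 1) was at 4.69 (E1), 8.84 (E2), 10.25 (M1) and 11.63 (M2), with E1 and E2 far apart and an adjusted p of 0.294. Of 13 genes of serpin binding and clearance, Lrp1 was higher in the M lines, with an adjusted p of 0.0279, while the median of the list was -0.10. Lrp1, a receptor that removes serpin and protease complexes, was at 10.98 in M1 and 12.18 in M2 against 7.39 in E1 and 7.35 in E2. Of 17 collagen-processing genes beside Serpinh1, P4ha2 and Pcolce were higher in the M lines and P3h2 in the E lines, with a median of 0.55. Of 24 other protease inhibitors, Timp1 was higher in the M lines, and Spint1 and Wfdc2 in the E lines, with a median of 0.06. No gene of these 8 lists was called for M1 by limma (from 0 to 4 genes a list passed an unadjusted p of 0.05), where the least adjusted p was the 0.0504 of C1s1.

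**Figure D4:**
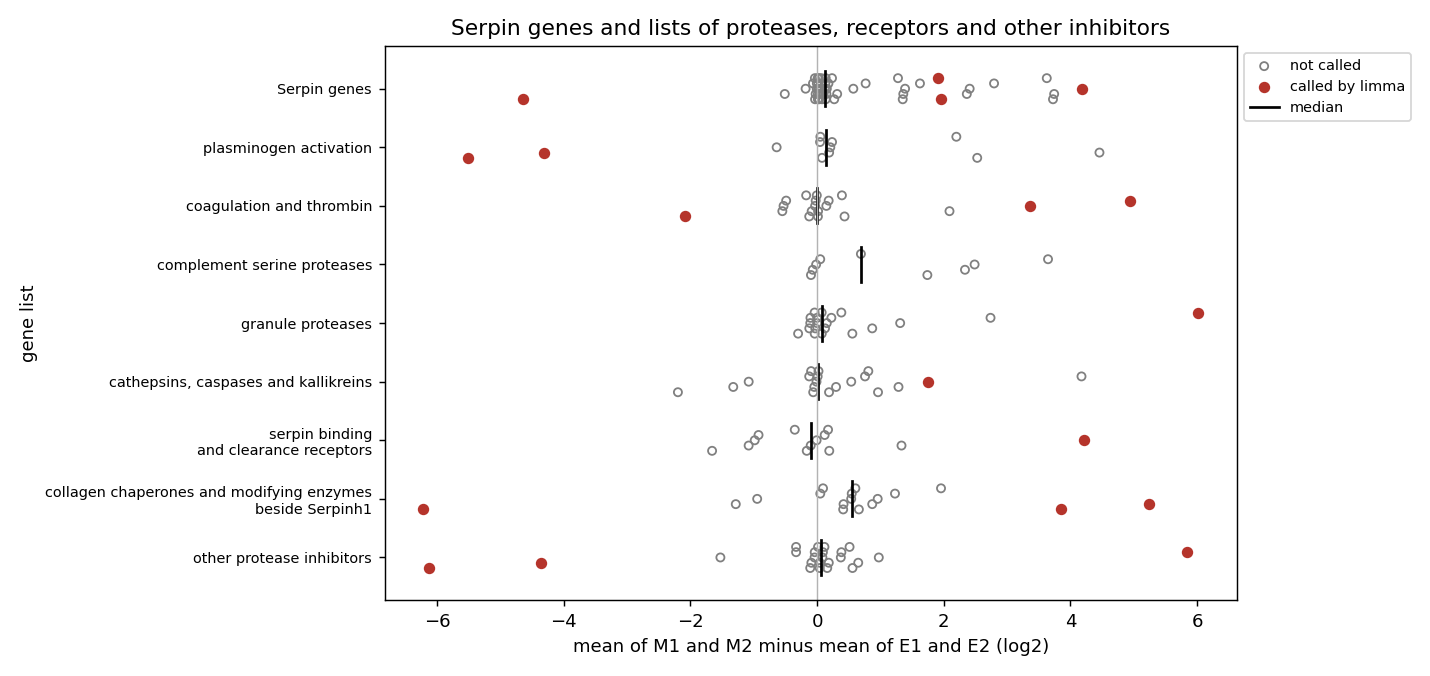
Difference between the mean of the M lines and the mean of the E lines (horizontal axis, log2) for the 48 Serpin genes and for the genes of 8 lists of proteases, receptors and other inhibitors (rows). Each point is 1 gene, filled points passed limma's test with adjustment over all probe sets, and vertical bars are medians. Serpina3n at 4.18 and Serpinb5 at -4.64 are the outermost called Serpin genes, and the Serpin median of 0.13 lies near 0, as do the medians of the lists apart from complement (0.69) and collagen processing (0.55).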

How the data were processed

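RNA of 4 clonal lines was hybridized to Affymetrix MoGene 1.0 ST arrays, 1 per line. The authors deposited normalized log2 levels, which run from 2.28 to 14.5. Partek is named in the processing notes, and its version, the background correction, the normalization and the genome build are not given in the sources used here. The number of arrays limits the precision. From these values, limma 3.58.1 in R 4.3.3 (lmFit, eBayes, Benjamini-Hochberg) was fitted to the 23410 probe sets with a symbol for 2 contrasts, E lines against M lines and M1 against the others, with 2 residual degrees of freedom. M1 against M2 and E2 against E1 are single-array differences. Of the 35556 probe sets, 12146 without a symbol were left out, and 5 with several Serpin symbols are not members. A bound ("at least") sets the measured mean of the brighter group against the background of the dimmer one.

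The rule for named genes took every member above background in any line, the rest by clade, and in each list the called genes and at most 4 with the largest difference. Gzmb, and the low members given by name, were chosen outside it, after their values were seen. Members, gene lists and tests were chosen with earlier results of these data known. The fit was tested on simulated data. Scaling, filter, floor, trend, minimum difference, replicate block and left-out lines were tried as alternatives.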

Additional observations from a re-analysis of the deposited data

How the results depend on the processing

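The 4 calls between the types stayed with quantile normalization, median centring, a filter on dim probe sets and an intensity trend (which gave 6). With values raised to background 3 were kept, and 2 (Serpina3n and Serpinb5) with a 2-fold minimum difference. Over all probe sets, 874 were called in the main fit and 833 to 939 in the settings that kept all 4. Values raised to background gave 1111, and the 2-fold minimum gave 340. Leaving out 1 line gave 0 to 13 calls. With the clone number as a replicate block, 2 members were called, beside 319 of all probe sets. Clones share only a number, and those with the same number did not deviate together (r = -0.0375 across 23410 probe sets). For M1, the 2 calls fell to 1 with the filter and with the 2-fold minimum, and to 0 without E1 or E2. The calls over all probe sets fell in each of these settings too. Without M2 the comparison of M1 becomes that of the types without M2. The count apart between M1 and M2, 11 at 2-fold, was 4 at 4-fold and 2 at 10-fold, and that between E2 and E1, 1, was 0 at 10-fold. At the looser 75th percentile, 33 members were above background. Of 231 recomputed differences between the types 16 changed sign, and of 189 for M1 2 did, all in genes that were not called there. Quantile normalization gave -0.0087 for Serpine3 and -0.034 for Serpinf2, and centring gave -0.011 and -0.032. Leaving out 1 line moved the difference of the types from -0.17 to 0.30 for Serpina10 (negative without E1 or M1), -0.089 to 0.044 for Serpina11 (positive without E2 or M1), -0.10 to 4.83 for Serpinb10 and -0.015 to 3.26 for Serpinb7 (negative without M1), -0.036 to 0.10 for Serpine3 and -0.067 to 0.091 for Serpinf2 (negative without E1 or M2), and -0.80 to 1.94 for Serpinf1 (negative without E2 or M1). It moved M1 against the others from -0.68 to 0.50 for Serpinb2 (positive without M2) and -0.12 to 0.34 for Serpinh1 (negative without M2). The cause was not tested. Each member has 1 probe set, so alternatives over other probe sets of a gene gave no value. With 2 lines a type, signal near background limits low genes most.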
